A study of Mus musculus with 24 samples.

Results

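The response of C57BL/6J mouse liver to a high-fat diet was measured in 13 of the 24 RNA-seq libraries of a study of liver in 2 inbred strains. The 13 libraries were chosen by their labels. They comprised 6 livers from C57BL/6J mice on chow and 7 livers from C57BL/6J mice on high-fat diet. The other 11 libraries came from 129S1/SvImJ mice, 5 on chow and 6 on high-fat diet, and entered the same fit. The labels gave strain, diet, tissue and a mouse id of 2 numbers for each library. In C57BL/6J the first id number was 58 or 61 on chow and 1 or 16 on high-fat diet. Its meaning is not stated. No first number occurred in both diets, so its effect cannot be told apart from that of diet. The labels gave no genetic change or drug treatment in either group, and no sex, age, diet composition or feeding time. Nothing in the labels stated which mice shared a cage or litter, so the replicates were treated as separate animals with their own livers. The p-values therefore measure the spread between these mice.

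Liver makes, stores, burns and exports fat. Cholesterol made in the endoplasmic reticulum is sensed by SCAP and the INSIG proteins, which hold the transcription factor SREBP2 inactive when sterol is plentiful, so that genes of the mevalonate pathway are transcribed when sterol is short. Oxysterols activate the LXR receptors, which raise sterol export genes and Srebf1, the gene of the lipogenic factor SREBP1c. Fatty acids activate PPAR receptors: PPARalpha is the main regulator of fat oxidation in hepatocytes, whereas PPARgamma is low in lean liver and is known for driving lipid storage genes in fatty liver.

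The 6 chow libraries held 10162138 to 12826048 counted reads and the 7 high-fat libraries 8294723 to 13124881. Levels below are in CPM, reads of a gene scaled to a common library size by trimmed means, and a gene was called when its edgeR quasi-likelihood test gave a Benjamini-Hochberg adjusted p under 0.05 over all 14533 genes tested. In bulk liver, fewer cells of a type and less RNA per cell cannot be told apart. The labelled tissue matched its markers in that all 10 hepatocyte markers passed the count filter and summed to 80662 to 119261 CPM over the 13 livers. Each of 36 pairs of replicates differed by more than counting error, with chi-square statistics of 5.30 to 72.4 times their degrees of freedom, so no 2 libraries looked like 1 deposited again. The abundant nuclear RNA 7SK (Rn7sk) varied between libraries. It spanned 2094 to 4998 CPM in the chow livers and 2158 to 4122 CPM in the others, and was level between the diets (log2 fold change 0.01, adjusted p = 0.991 by edgeR).

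High-fat diet changed 2159 genes in C57BL/6J liver, which is 14.9% of those tested. Of these, 1113 genes were higher (7.66%) and 1046 lower (7.2%). The changes were mostly small: 217 genes rose by at least 1 on the log2 scale (1.49%) and 98 fell by as much (0.674%). The median over all genes was a log2 fold change of 0.01. For 562 genes (3.87%) the CPM of the 7 high-fat mice did not overlap that of the 6 chow mice, and 542 of these were called. Every high-fat mouse was above every chow mouse for 255 genes (1.75%) and below for 307 (2.11%).

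**Figure D1:**
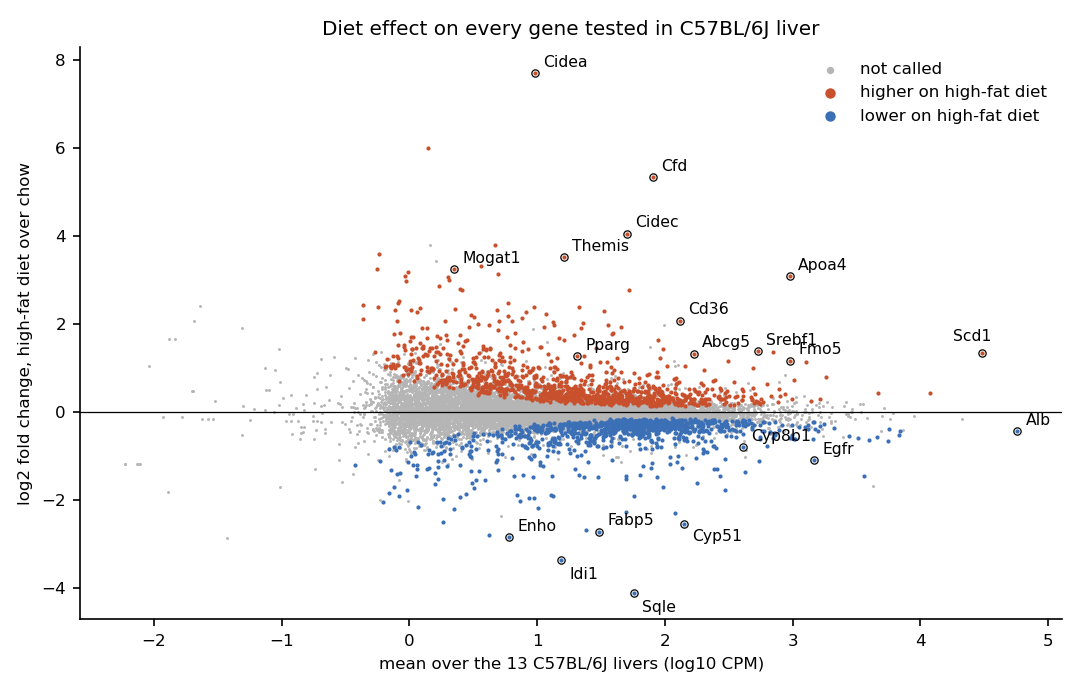
Log2 fold change (high-fat diet over chow) of every gene tested in C57BL/6J liver against its mean level over the 13 livers in log10 CPM. Orange and blue points are genes called higher and lower and grey points were not called; 11 tested genes with no read in these 13 livers are not drawn. Cidea, Cfd and Cidec lie at the top, Sqle and Idi1 at the bottom, and the abundant Scd1 and Alb at the right.

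The 53 gene lists used to describe these calls cover metabolic pathways, signalling, stress and cell type markers, and 52 had tested members. Beside the 7.66% and 7.2% of all genes, lists with many lower members were the cholesterol synthesis enzymes, cytosolic ribosomal proteins, complement and coagulation factors and hepatocyte markers. Lists with many higher members were lipid droplet proteins, cell cycle genes, sterol efflux genes, lipolysis enzymes and peroxisomal oxidation. Some list counts below are given again for fits with fewer libraries, where calls over all genes also fell. In place of 1113 higher and 1046 lower genes, there were 677 and 656 without high-fat mice 2 and 5. Without mouse 2 alone there were 883 and 813, and without mouse 5 alone 963 and 805. With only the 13 C57BL/6J libraries there were 783 and 752.

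**Figure D2:**
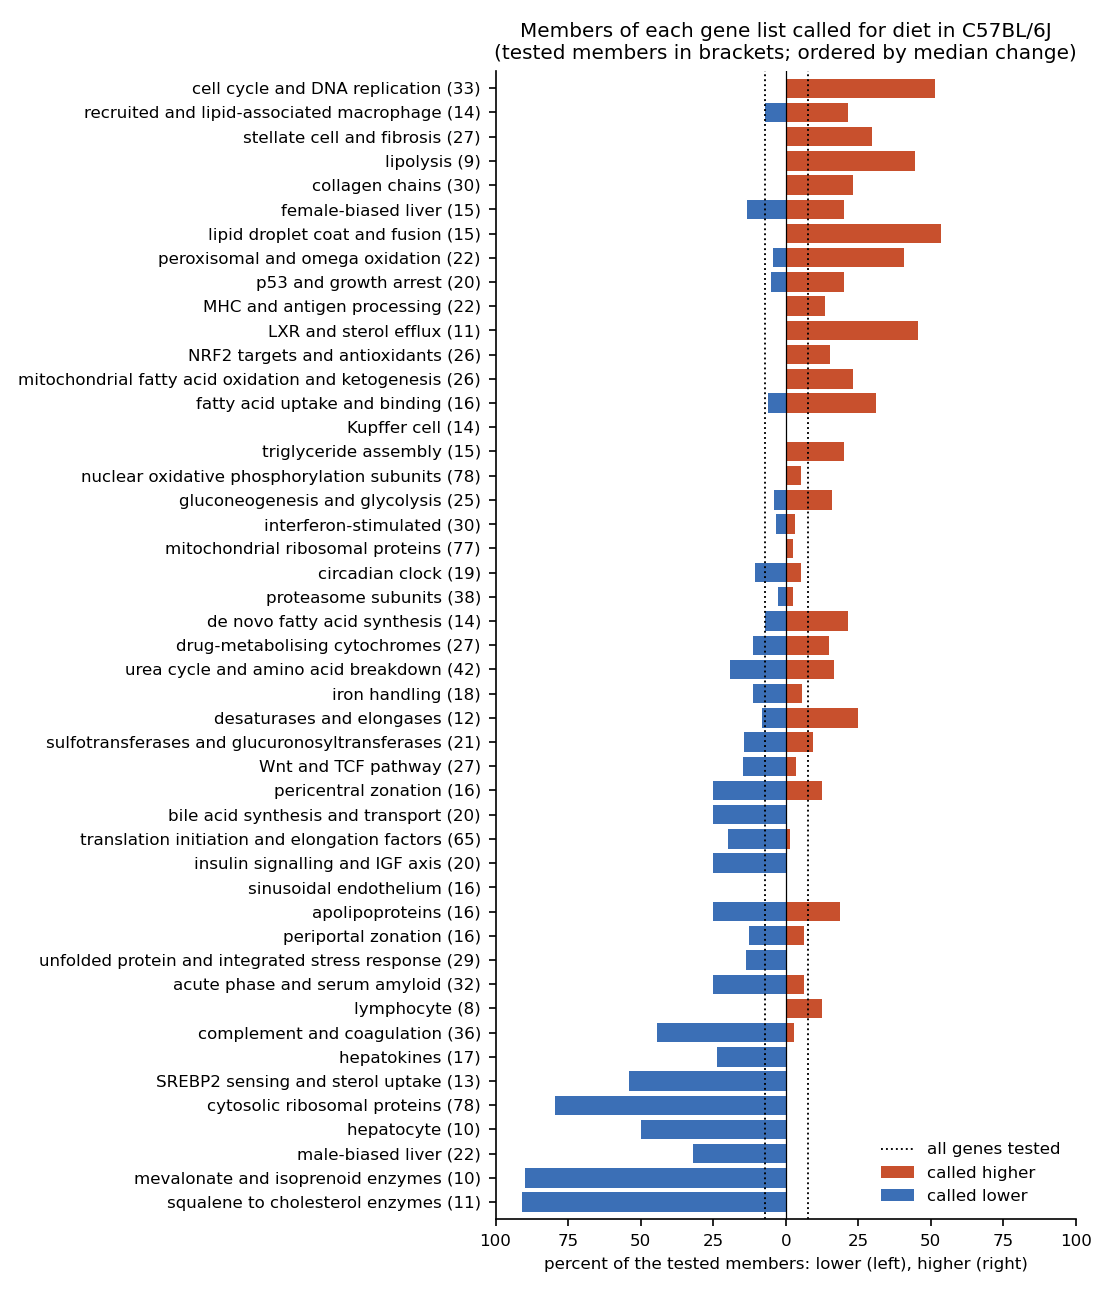
Percent of the tested members called higher (orange, to the right) or lower (blue, to the left) on high-fat diet in C57BL/6J, for lists with at least 8 tested members and a call in either direction, plus the Kupffer and sinusoidal lists; the number tested is in brackets and the dotted lines mark the 7.66% and 7.2% of all genes. The lists drawn are ordered by median log2 fold change, from the cell cycle at the top (0.70) to squalene to cholesterol enzymes at the bottom (-1.47).

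The deepest changes were in cholesterol synthesis. Of 10 mevalonate and isoprenoid enzymes, 9 were lower and none higher, with a median log2 fold change of -1.46. Of 11 enzymes from squalene to cholesterol, 10 were lower and none higher, with a median of -1.47. In the first list the member not called was Ggps1, which makes the lipid anchor geranylgeranyl diphosphate, at -0.17.

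Sqle (ENSMUSG00000022351.14; mm10 chromosome 15, 59315077 to 59331192, plus strand) encodes squalene epoxidase, an early committed step toward sterols. Its level was 61.1 CPM in the lowest chow mouse, 124 at the median and 148 in the highest, against 0.710, 4.83 and 17.6 CPM on high-fat diet. All 7 high-fat mice lay below all chow mice, with mouse 3 lowest and mouse 5 highest. The log2 fold change was -4.11 ± 0.43 (SE, n = 6 and 7; adjusted p = 3.23e-06 by edgeR). Idi1, the isopentenyl diphosphate isomerase, ran from 17.8 over 29.5 to 41.9 CPM on chow and from 1.72 over 2.95 to 4.50 on high-fat diet (lowest, median, highest). Its groups did not overlap either, and its log2 fold change was -3.36 ± 0.20 (adjusted p = 7.13e-11 by edgeR). Cyp51, the sterol demethylase, stood at a median of 241 CPM on chow (200 to 337) and 38.6 on high-fat diet (30.1 to 63.0), a log2 fold change of -2.54 ± 0.16.

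The later sterol enzymes Msmo1 (-2.28), Nsdhl (-2.26), Hsd17b7 (-1.70) and Tm7sf2 (-1.47) also fell without overlap of the groups. Among the mevalonate enzymes, Mvd (-2.18), Fdps (-1.88), Pmvk (-1.47) and Fdft1 (-1.23) did the same. Hmgcs1, the HMG-CoA synthase, fell by 1.76 on the log2 scale and Mvk, the mevalonate kinase, by 1.44, with some overlap. In Mvk the overlap came from chow mouse 6, at 8.44 CPM where the other chow mice had 21.1 to 23.7.

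Of 13 genes of sterol sensing and uptake, 7 were lower and none higher, with a median of -0.28; 3 were lower when only the 13 C57BL/6J libraries were fitted. Srebf2, the gene of SREBP2 itself, fell by 0.81 on the log2 scale, Scap by 0.58 and Stard4, a cytosolic sterol carrier, by 0.88. Srebf2 ran from 67.6 over 91.6 to 109.1 CPM on chow and from 43.4 over 51.1 to 66.4 on high-fat diet (adjusted p = 5.99e-05 by edgeR). Every high-fat mouse lay below every chow mouse, with mouse 6 highest among them.

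Because these enzymes moved together, their promoters were searched for the sterol regulatory element TCACNCCAC on both strands, from 250 bases before to 50 after the RefSeq start (build GRCm38.p6). Of the 16 cholesterol enzyme genes found in the promoter table, 1 held it (6.25%), against 1.44% of 27025 genes in the table and 2.08% of the matched genes called lower. The window of that gene is shown as the example of the element in a gene that fell here, with the motif in capitals. It lies on the plus strand at chr13:119690189-119690247, and the motif begins 137 bases before the start.
Hmgcs1: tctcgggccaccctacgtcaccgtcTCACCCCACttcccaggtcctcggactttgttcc
The absence of these letters from the other 15 windows says only that this spelling is not in them.

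Sterol export genes rose while synthesis fell. Of 11 genes of the LXR and efflux list, 5 were higher and none lower, with a median of 0.21. Abcg5 and Abcg8 encode the partners of the pump that sends cholesterol into bile. Abcg5 (ENSMUSG00000040505.13; mm10 chromosome 17, 84658234 to 84683011, minus strand) ran from 71.2 over 97.8 to 111 CPM on chow and from 173 over 225 to 324 on high-fat diet. Every high-fat mouse was above every chow mouse, and the log2 fold change was 1.33 ± 0.13 (adjusted p = 1.95e-07 by edgeR). Abcg8 rose by 0.97 and Abcg1, another sterol transporter, by 0.77, both without overlap. Lpcat3, a phospholipid remodelling enzyme, rose by 0.37. Abca1, which loads lipid onto HDL, rose by 0.24 (adjusted p = 0.0304 by edgeR). That call was lost in 6 of the 24 fits that left out 1 library, with adjusted p up to 0.0743. All 6 were among the 13 fits that left out a C57BL/6J mouse.

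Genes of lipid droplets rose in the same livers. Of 15 tested members of the lipid droplet list, 8 were higher and none lower, with a median of 0.28. Cidec (ENSMUSG00000030278.11; mm10 chromosome 6, 113424634 to 113435760, minus strand) encodes a protein that fuses droplets into larger ones. It ran from 3.33 over 5.77 to 7.16 CPM on chow and from 14.7 over 84.6 to 208 on high-fat diet. The groups were apart, but the high-fat mice spread widely, with mouse 5 at 208 CPM, mouse 7 at 135, mouse 2 at 121, mouse 1 at 84.6, mouse 3 at 37.2, mouse 4 at 24.2 and mouse 6 at 14.7. The log2 fold change was 4.06 ± 0.51 (adjusted p = 2.64e-05 by edgeR).

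Cidea, a related droplet protein best known from brown fat, was at 0 to 0.169 CPM on chow and from 0.118 over 21.4 to 39.8 CPM on high-fat diet. It overlapped the chow range in mouse 6 alone, and it was called higher (adjusted p = 0.000377 by edgeR). Its fold change rests on chow levels near 0 and is not a bound. Plin4, a droplet coat protein, rose from a median of 14.7 CPM (9.999 to 25.1) to 61.8 (34.3 to 95.2), a log2 fold change of 1.78 ± 0.32. Fitm1 (1.13), Hsd17b11 (0.68) and Bscl2 (0.28), which act in droplet formation or on its surface, rose less. Plin2, the general hepatic droplet coat gene, was not called at -0.07. Without mice 2 and 5 together, 4 of the 15 were called higher.

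**Figure D3:**
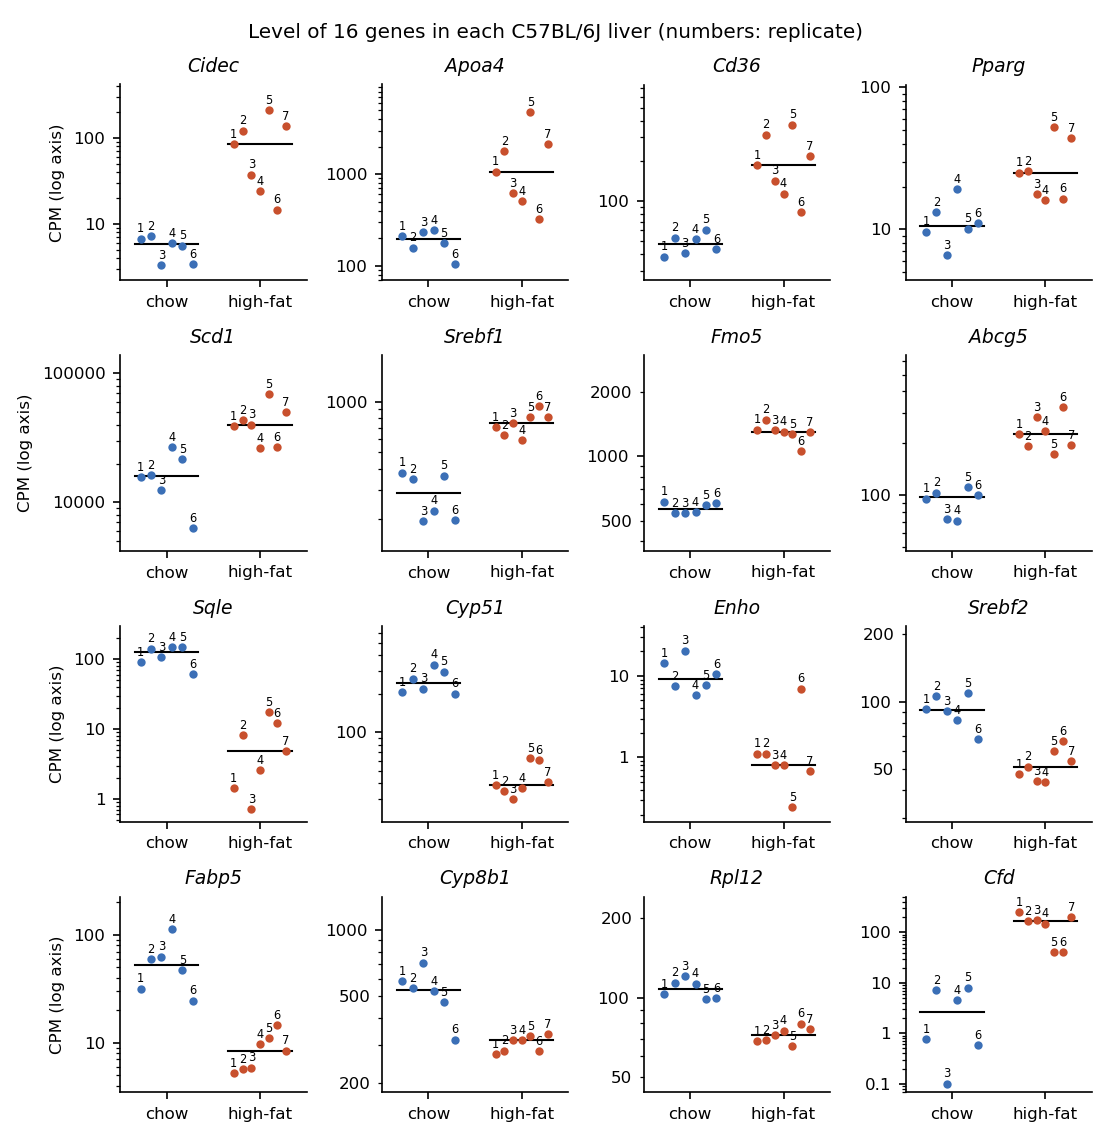
CPM of 16 genes in each C57BL/6J liver on log axes, chow in blue and high-fat diet in orange, with the replicate number beside each point and a bar at the group median. Cidec, Apoa4, Cd36 and Scd1 share an order of the high-fat mice with 5 at the top and 6 or 4 at the bottom, Cfd has 5 and 6 lowest, and Enho has mouse 6 alone in the chow range.

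Of 16 genes of fatty acid uptake and binding, 5 were higher and 1 lower. Cd36, a fatty acid receptor at the cell surface, ran from 38.2 over 47.6 to 60.8 CPM on chow and from 82.8 over 185 to 373 on high-fat diet, without overlap (log2 fold change 2.09 ± 0.27, adjusted p = 2.54e-05 by edgeR). Pparg, the gene of PPARgamma, rose from a median of 10.6 CPM (6.56 to 19.3) to 25.03 (16.1 to 52.4), with chow mouse 4 inside the high-fat range (log2 fold change 1.28 ± 0.29, adjusted p = 0.00434 by edgeR). Fabp2, the intestinal-type fatty acid binding protein, rose by 1.63 and Fabp4, the adipocyte type, by 1.59, both without overlap. Fabp5, the epidermal type, moved the other way. It ran from 24.6 over 52.95 to 112.6 CPM on chow and from 5.20 over 8.45 to 14.6 on high-fat diet, again without overlap, and fell by 2.71 on the log2 scale (SE 0.42, adjusted p = 0.000205 by edgeR).

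Triglyceride assembly showed 3 of 15 members higher and none lower: Mogat1 (3.25), a monoacylglycerol acyltransferase low in lean liver, Agpat2 (0.62) and Agpat1. The lipolysis list had 4 of 9 higher and none lower, among them Lipe, hormone-sensitive lipase (0.74), and Mgll, monoacylglycerol lipase (0.55). Lipe did not overlap, at 27.3 to 30.5 CPM on chow and 35.0 to 62.8 on high-fat diet. Without mice 2 and 5 together, 1 of the 9 was called.

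Several of these genes also mark fat cells, so the adipocyte list was read beside them. Of its 14 markers 6 passed the filter, and 4 of those were higher (Cfd, Cidea, Fabp4 and Lipe). Below the filter, Lep, Plin1 and Slc36a2 had no read in any chow liver, and Adipoq reached 0.169 CPM on chow. On high-fat diet Lep was at 3.27 CPM, Plin1 at 1.55 and Adipoq at 1.23 in mouse 5. The other 6 mice had at most 0.149 CPM of Lep, Plin1 or Adipoq. Trarg1 was detected in every liver, at 0.303 to 0.675 CPM on chow and 0.0743 to 1.47 on high-fat diet, highest in mouse 5. Retn, Ucp1 and Dgat2l6 stayed at or below 0.245 CPM. Cidec was 84.6 CPM in mouse 1 and 121 in mouse 2. Lep and Plin1 were at 0 in both, and Adipoq was at 0.149 CPM in mouse 1 and at 0 in mouse 2. Trarg1 was at 0.0743 CPM in mouse 1 and 0.709 in mouse 2. These markers are near the floor of detection, and the part of fat-cell RNA in the droplet genes was not tested.

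Cfd (ENSMUSG00000061780.6; mm10 chromosome 10, 79890853 to 79892655, plus strand), the gene of complement factor D or adipsin, had a log2 fold change of 5.35 ± 0.62 (adjusted p = 1.17e-05 by edgeR). It ran from 0.101 over 2.66 to 8.06 CPM on chow and from 41.1 over 166 to 255 on high-fat diet. The groups did not overlap. Mice 5 (41.2 CPM) and 6 (41.1 CPM) were the lowest of the 7.

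In fatty acid synthesis Srebf1 and Thrsp rose and the main enzymes were not called. Of 14 genes, 3 were higher, among them Srebf1 and Thrsp, and 1 lower (Acss2). Srebf1 (ENSMUSG00000020538.15; mm10 chromosome 11, 60199089 to 60222581, minus strand) ran from 194 over 285 to 378 CPM on chow and from 588 over 743 to 945 on high-fat diet, with no overlap and with mouse 6 highest (log2 fold change 1.40 ± 0.18, adjusted p = 2.44e-05 by edgeR). Thrsp rose by 1.16 at an adjusted p of 0.0463 by edgeR, and lost its call in 15 of 24 fits without 1 library, with adjusted p up to 0.102. Fasn (0.07) and Acaca (-0.10), the fatty acid synthase and acetyl-CoA carboxylase, were not called. Acss2, a cytosolic acetyl-CoA synthetase that is also an SREBP target, fell by 1.29.

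Among 12 desaturases and elongases, Scd1, Scd2 and Elovl5 were higher and Elovl3 lower. Scd1, the stearoyl-CoA desaturase, was among the most abundant messages in these livers, at 6320, 16066 and 26795 CPM on chow (lowest, median, highest) and 26160, 39974 and 68862 on high-fat diet. Chow mouse 4 lay just above the lowest high-fat mouse, and the log2 fold change was 1.35 ± 0.26 (adjusted p = 0.00110 by edgeR). Elovl3, an elongase of very long chains, fell by 1.13. The Elovl5 call (0.73, adjusted p = 0.0370 by edgeR) was lost in 8 of the 24 fits, with adjusted p up to 0.0983. Each of these 8 left out a C57BL/6J mouse.

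Some genes of fatty acid oxidation rose. Of 22 peroxisomal and omega oxidation genes, 9 were higher and 1 lower (median 0.26). Acaa1b, a peroxisomal thiolase, ran from 510 over 778 to 940 CPM on chow and from 1238 over 1524 to 2391 on high-fat diet, without overlap (log2 fold change 1.13 ± 0.15, adjusted p = 2.44e-05 by edgeR). Of 26 mitochondrial oxidation and ketogenesis genes, 6 were higher and none lower (median 0.18), including Hadh (0.49) and the thioesterase Acot2 (1.49). Cpt1a, the gate to mitochondria, was not called at 0.04. Without mice 2 and 5 together, the counts called higher were 5 of 22 and 2 of 26, beside 677 of all genes in place of 1113. Outside these lists, Acot11, another thioesterase, rose by 2.04 and Aldh3a2, a fatty aldehyde dehydrogenase, by 1.37, both without overlap.

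Bile acid genes fell in part. Of 20 tested, 5 were lower and none higher (median -0.08), and 3 were lower without high-fat mice 2 and 5. Cyp8b1, the sterol 12-alpha-hydroxylase that sets the cholic acid share, was at 317 to 712 CPM on chow and 273 to 335 on high-fat diet, and overlapped through chow mouse 6 (log2 fold change -0.79 ± 0.14, adjusted p = 0.000356 by edgeR). The bile acid importer Slc10a1 fell by 0.56 and the bile salt export pump Abcb11 by 0.46. Cyp7b1, of the acidic pathway, fell by 1.30, a call lost without chow mouse 3 (adjusted p = 0.0565) or chow mouse 6 (0.0515). Cyp7a1, the rate-limiting enzyme of the classic pathway, was not called at 0.45.

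Apolipoproteins split, with 3 of 16 higher and 4 lower. Apoa4, a component of triglyceride-rich particles, ran from 104 over 194 to 245 CPM on chow and from 321 over 1065 to 4785 on high-fat diet, without overlap, with mouse 5 highest (log2 fold change 3.09 ± 0.48, adjusted p = 0.000216 by edgeR). Apoe rose by 0.45 and Apom, an HDL component, fell by 1.01. Apoa1, the main HDL protein, fell by 0.37 at an adjusted p of 0.0475 by edgeR, and its call was lost in 19 of 24 fits, with adjusted p up to 0.0899. Without mouse 2 or without mouse 5, 1 of the 16 was lower in place of 4.

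Many genes of secreted plasma proteins fell. Of 36 complement and coagulation factors, 16 were lower and only Cfd was higher, with a median of -0.22. Alb, albumin, ran from 62892 over 65743 to 70492 CPM on chow and from 44478 over 48732 to 57427 on high-fat diet. Its groups did not overlap, and it fell by 0.43 on the log2 scale (SE 0.10, adjusted p = 0.00370 by edgeR). The fibrinogen chains Fga (-0.63), Fgb (-0.58) and Fgg (-0.54), kininogen Kng1 (-0.37) and antithrombin Serpinc1 (-0.31) were also lower without overlap. Without mice 2 and 5 together, 8 of the 36 were lower, and 7 were when the 129S1/SvImJ libraries were left out of the fit. C3 (-0.52), Ahsg (-0.55) and Pzp (-0.43) fell with overlap. Among 10 hepatocyte markers, 5 were lower and none higher, including the transcription factor Hnf4a (-0.53). Without high-fat mouse 2, and likewise in the 13 C57BL/6J libraries alone, 3 of the 10 were lower.

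Cytosolic ribosomal protein genes moved as a block of small changes. Of 78 tested, 62 were lower and none higher, with a median of -0.35, and 43 had every high-fat mouse below every chow mouse. Rpl12 (ENSMUSG00000038900.17; mm10 chromosome 2, 32961559 to 32965345, plus strand) ran from 98.7 over 108 to 121 CPM on chow and from 65.8 over 72.2 to 79.9 on high-fat diet (log2 fold change -0.58 ± 0.08, adjusted p = 1.38e-05 by edgeR). Rps18 (-0.49) and Rpl32 (-0.46) were also without overlap. Of 77 mitochondrial ribosomal protein genes, 2 were higher and none lower (median 0.05). Of 65 translation factors, 13 were lower and 1 higher, with Eef2, an elongation factor, at -0.30; 5 of the 65 were lower without mice 2 and 5. Within the 8 libraries of higher Rn7sk 58 ribosomal protein genes were lower, and within the 5 of lower Rn7sk 8 were. Ribosomal protein genes have many processed pseudogenes, so reads shared with near-identical copies make single members uncertain.

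Insulin signalling genes showed 5 of 20 lower and none higher. The insulin receptor substrates Irs2 (-0.83) and Irs1 (-0.77) fell, from medians of 80.7 to 49.8 CPM and of 116 to 70.3 CPM, and Irs1 did not overlap. Without mouse 5 the list had 2 lower members, and without mouse 2 it had 3. Insr, the receptor, fell by 0.18 at an adjusted p of 0.0362 by edgeR. Its call was lost in 8 of 24 fits (up to 0.0894), each of which left out a C57BL/6J mouse. Of 17 hepatokines, 4 were lower and none higher. Enho, the gene of adropin, was at 5.78 to 20.4 CPM on chow and at 0.245 to 1.11 in 6 of the 7 high-fat mice, with mouse 6 at 6.98 (log2 fold change -2.84 ± 0.48, adjusted p = 0.000409 by edgeR). Hamp, hepcidin, the hormone that limits iron export, fell by 1.44, again with mouse 6 (422 CPM) in the chow range. Bmp6, which induces Hamp, fell by 0.82 without overlap. Fgf21 (-0.28, adjusted p = 0.768) and Gdf15 (1.20, adjusted p = 0.0854), both stress hormones of liver, were not called by edgeR.

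Of 27 Wnt and TCF pathway genes, 4 were lower and 1 higher. Tcf7l2, the factor named in the study's title, was at 54.0 to 65.7 CPM on chow (median 56.1) and 40.4 to 55.04 on high-fat diet (median 48.3). The ranges overlapped narrowly, and it fell by 0.29 on the log2 scale (SE 0.08, adjusted p = 0.0169 by edgeR). Tcf7, a related factor, fell by 0.87 and Znrf3, a feedback inhibitor, by 0.45, both without overlap, and the receptor Fzd4 rose by 0.61. Notum fell by 0.63 (adjusted p = 0.0123 by edgeR). That call held in all 24 fits without 1 library and was lost without high-fat mice 2 and 5 together. Axin2, the usual reporter of Wnt signalling, was level at 0.02 (adjusted p = 0.974 by edgeR).

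Drug-metabolising cytochromes had 4 of 27 higher and 3 lower. Cyp1a2 fell from a median of 638 CPM (489 to 767) to 231 (114 to 376), without overlap, and Cyp3a11 rose by 0.81. Fmo5, a flavin monooxygenase, rose from 542 to 614 CPM on chow to 1053 to 1482 on high-fat diet, a log2 fold change of 1.17 ± 0.10 (adjusted p = 6.31e-09 by edgeR). Of 29 genes of the unfolded protein and integrated stress responses, 4 were lower and none higher, among them Asns, asparagine synthetase (-1.93), and Atf4 (-0.33). Without high-fat mice 2 and 5, 2 of the 29 were lower. Of 22 MHC and antigen processing genes, 3 were higher, Psmb9 (0.81), Tap1 (0.48) and Tap2 (0.38), and none lower.

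Cell division and matrix genes rose, most strongly in high-fat mice 2 and 5. Of 33 cell cycle genes, 17 were higher and none lower (median 0.70). Mki67, a marker of cycling cells, was at 2.65 to 4.63 CPM on chow and from 3.04 over 6.71 to 21.8 on high-fat diet, with mice 5 (21.8) and 2 (16.9) far above the rest (log2 fold change 1.46 ± 0.39, adjusted p = 0.0139 by edgeR). Prc1 (1.91) and Cenpf (1.75), of mitosis, and Mcm4 (0.93), of DNA replication, rose as well. The list mean was 1.18 above the chow mean in mouse 5, 0.94 in mouse 2 and 0.00 to 0.44 in the other high-fat mice (log2 scale). No chow mouse was more than 0.09 above it. Without mice 2 and 5 together, 3 of the 33 were higher, and without either alone, 11. Leaving out both mice also lowered the calls over all genes from 2159 to 1333. Within the libraries of higher or of lower Rn7sk, which are fewer, none was called. Cdkn1a, the p53-induced cell cycle inhibitor p21, rose by 1.94, and 4 of 20 p53 target and growth arrest genes were higher and 1 lower (1 higher without mice 2 and 5).

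Of 27 stellate cell and fibrosis genes, 8 were higher and none lower (median 0.53). Col1a1, a fibrillar collagen chain, ran from 7.09 over 18.2 to 31.2 CPM on chow and from 9.84 over 36.1 to 179 on high-fat diet. Mice 5 (179) and 2 (127) were highest, and mice 3 and 4 were inside the chow range (log2 fold change 1.95 ± 0.59, adjusted p = 0.0289 by edgeR). Col5a2 (1.40), Col3a1 (1.44) and Col1a2 (1.23) rose too. The list mean was 1.21 above the chow mean in mouse 5, 0.89 in mouse 2, 0.75 in mouse 7 and -0.27 to 0.34 in the other high-fat mice. The highest chow mouse was at 0.28. Without mice 2 and 5 the count was 1, and it was also 1 without either alone. The call of Col1a1 was then lost at adjusted p = 0.0634 (without 2) and 0.0801 (without 5) by edgeR. It was also lost without chow mouse 1 (0.0611), 3 (0.0506) or 6 (0.0646).

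Of 14 recruited and lipid-associated macrophage markers, 3 were higher (Mmp12, Itgax and Clec7a) and 1 lower, Fabp5, which hepatocytes and other cells also express. None was called higher without mouse 2 or without mouse 5. Each of the 3 calls was lost in 9 of the 24 fits without 1 library, all 9 among the 13 that left out a C57BL/6J mouse. Mmp12 and Itgax lost theirs without any 1 of the 6 chow mice, and all 3 did without high-fat mouse 7. Gpnmb, a marker of lipid-laden macrophages, was at 0.0964 to 0.543 CPM on chow and at 0.357 to 8.67 on high-fat diet, with mice 5 and 2 highest (adjusted p = 0.0502 by edgeR). Of 14 Kupffer cell markers none was called, and none had an unadjusted p under 0.05 or was called by DESeq2. Of 16 sinusoidal endothelial markers none was called, with 3 at an unadjusted p under 0.05 and none called by DESeq2. The part of macrophage, stellate or endothelial cell numbers in these changes was not tested.

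Themis, known as a T cell gene, rose from a median of 2.58 CPM (1.18 to 3.37) to 26.4 (6.51 to 50.3), without overlap. The other 7 tested lymphocyte markers were not called, and Cd3d, Cd3e and Cd3g stayed at or below 1.54 CPM in every liver. Among the largest changes outside the lists, Adam11 (2.77), a metalloprotease-like membrane protein, Smpd3 (2.40), a neutral sphingomyelinase, Osbpl3 (2.30), an oxysterol-binding relative, and Sema5b (2.28) rose without overlap. Rdh11 (-1.91), a retinol dehydrogenase, Aldoc (-1.95), aldolase C, and Avpr1a (-1.91), a vasopressin receptor, fell without overlap. Csad, of taurine synthesis, fell by 1.60. Neat1, a nuclear noncoding RNA, ran from 1381 over 5802 to 7715 CPM on chow and from 1695 over 1958 to 2783 on high-fat diet, and chow mouse 3 stood alone at 1381 where the other 5 had 5127 to 7715.

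Over all genes, the spread among the 7 high-fat mice was slightly wider than that among the 6 chow mice. The SD over mice of log2(CPM + 0.5) was larger on high-fat diet for 58.01% of genes, with medians of 0.21 and 0.19. It reached 1 in 115 genes on high-fat diet and in 62 on chow. This share was 53.2% without high-fat mouse 5 and 53.1% without high-fat mouse 6. Periportal genes had a median SD of 0.46 on high-fat diet and 0.18 on chow, recruited macrophage markers 0.78 and 0.35, and genes known as male-biased in liver 0.66 and 0.32. Ribosomal protein genes were as tight in both groups (0.12 and 0.12). Other lists had the larger SD on chow. The median SD was 0.26 on high-fat diet and 0.37 on chow for the unfolded protein and stress responses, 0.24 and 0.31 for circadian clock genes, 0.34 and 0.47 for immediate early genes, and 0.44 and 0.53 for mevalonate enzymes.

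By their main direction of variation, the high-fat mice formed a gradient. On the first principal component of the 13 livers, which held 32.7% of the variance, chow mice lay between -24.0 and -15.0. High-fat mice 6 (-5.65) and 4 (-4.49) were nearest to them, followed by 3 (4.33), 1 (16.3), 7 (23.8), 2 (33.3) and 5 (46.5). The lipid droplet list gave nearly the same order, with a mean of 0.14 over the chow mean in mouse 6, 0.47 in 4, 0.63 in 3, 1.00 in 1, 1.07 in 2, 1.13 in 7 and 1.28 in 5 (log2 scale). In the order of the component, the libraries held 8294723 reads in mouse 6, 11341845 in 4, 9987452 in 3, 13117814 in 1, 13124881 in 7, 9397661 in 2 and 11760587 in 5. Mouse 6, the nearest to chow on this component, had the fewest reads, and the part of depth in the gradient was not tested. The second component held 13.9% of the variance and gave another order. On it chow mice lay between -16.4 and 5.37, mice 4 (25.1) and 3 (22.8) were farthest above them, and mouse 5 (-23.2) was below them. Nearness to chow therefore refers to the first component alone.

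A second group of genes was lower along the order of the first component. The labels do not give the sex of these mice. Serpina1e (ENSMUSG00000072849.10; mm10 chromosome 12, 103946931 to 103958975, minus strand), an alpha-1-antitrypsin gene known to be higher in male liver, was at 4401 to 9245 CPM on chow. On high-fat diet it was at 6824 CPM in mouse 6, 2736 in mouse 4, 2233 in mouse 3, 1868 in mouse 1, 654 in mouse 7, 469 in mouse 2 and 44.0 in mouse 5. It was not called over the group (log2 fold change -1.67 ± 0.60, adjusted p = 0.0647 by edgeR), and near-identical Serpina1 copies make its reads uncertain. Hsd3b5, a male-biased steroid dehydrogenase, was at 149 to 230 CPM on chow, at 0.573 in mouse 5, 35.7 in mouse 2 and 72.6 in mouse 7, and at 102 to 177 in the other 4. The mean of the 22 male-biased genes was 2.59 below the chow mean in mouse 5, 1.28 below in mouse 2 and 0.88 below in mouse 7, and between 0.07 and 0.31 below in the other 4 (log2 scale). Over the group, 7 of these 22 were lower and none higher, and 3 were lower without mice 2 and 5.

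Cps1, the entry enzyme of the urea cycle, was at 6398 to 8024 CPM on chow. On high-fat diet it was at 1754 CPM in mouse 5, 2982 in mouse 2, 3591 in mouse 7 and 4452 in mouse 1, and at 5433 to 6561 in mice 3, 4 and 6. Its call (-0.65, adjusted p = 0.0252 by edgeR) was lost without mouse 2 (0.0563), mouse 7 (0.0551) or chow mouse 3 (0.0526). Egfr, the epidermal growth factor receptor, was at 1409 to 3259 CPM on chow, and mouse 5 stood at 245 where the other high-fat mice had 770 to 1474. Ly6d, a surface protein of epithelial and lymphoid precursors, was at most 1.01 CPM on chow and reached 31.5 in mouse 5 and 21.8 in mouse 2, with at most 2.11 in the others. Lcn2, lipocalin 2, reached 35.8 and 35.0 CPM in these same mice, but was also at 15.5 in chow mouse 3.

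**Figure D4:**
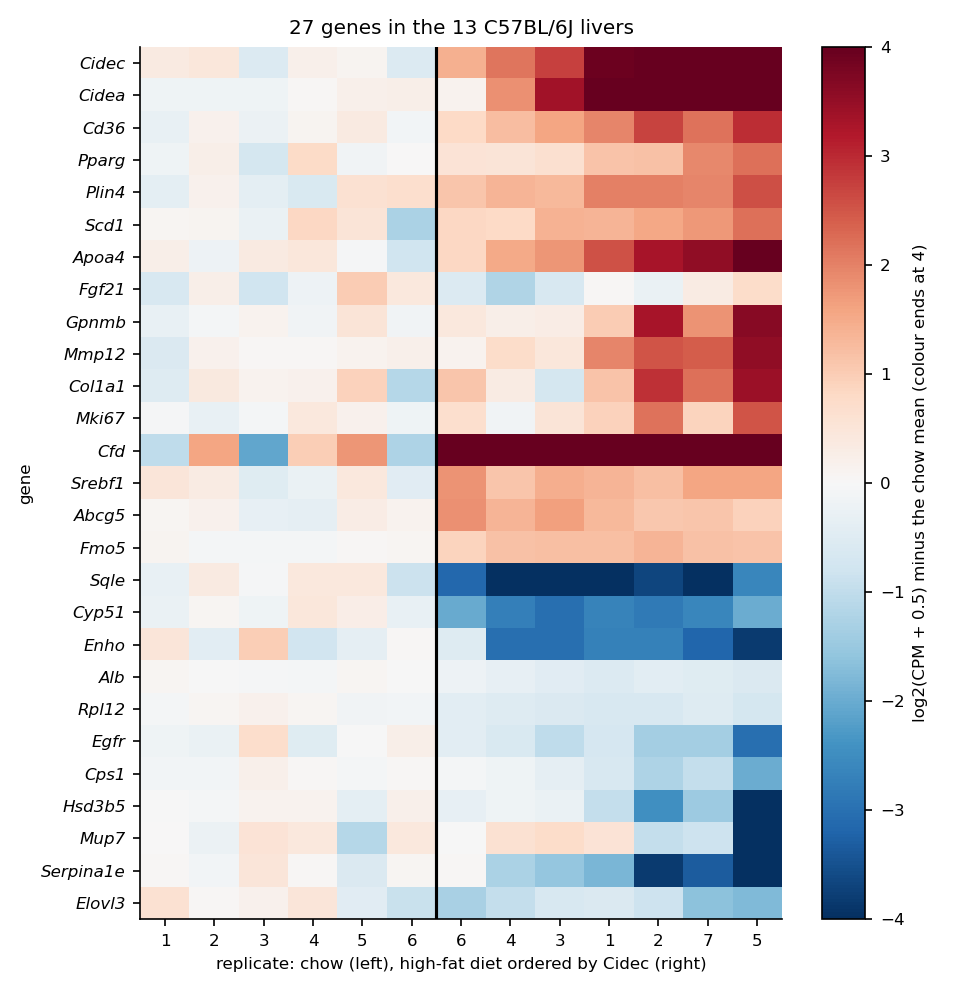
Log2(CPM + 0.5) minus the chow mean for 27 genes (rows) in the 6 chow mice (left) and the 7 high-fat mice ordered by Cidec (right); red is above and blue below the chow mean, and the colour ends at 4. Cidec, Cd36 and Plin4 are highest and Serpina1e lowest in mouse 5, and Gpnmb, Mmp12 and Col1a1 are highest in mice 2, 7 and 5, while Srebf1, Fmo5, Alb and Rpl12 are similar in all 7 high-fat mice.

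Some other responses were even across the 7 mice. Called genes with the narrowest spread among these mice were picked for naming, so such SDs were sought and do not describe the usual response. The median SD on high-fat diet was 0.24 over genes called higher and 0.17 over genes called lower. Fmo5 had an SD of 0.15 among high-fat mice on the log2 scale, Inmt, a methyltransferase that rose by 1.01, had 0.18, and Fdft1 had 0.20. The SD of Srebf1 was 0.23 on high-fat diet and 0.46 on chow. The cholesterol enzymes did not follow the droplet order: their list means were least reduced in mice 5 and 6, which stood at opposite ends of the gradient. For squalene to cholesterol enzymes the means were -1.15 in mouse 5 and -1.18 in mouse 6, and -2.09 to -1.70 in the other 5.

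Each mouse was also set against genes called without it. Among genes called higher with a mouse left out, the share on the higher side of the chow mean in that mouse was 98.5% in mouse 7, 97.8% in mouse 1, 97.4% in mouse 2, 90.0% in mouse 5, 89.7% in mouse 3, 83.9% in mouse 4 and 73.7% in mouse 6. For genes called lower the shares ran from 80.1% in mouse 6 to 99.2% in mouse 7. The median change of the higher genes was 0.18 in mouse 6 and 0.24 in mouse 4, against 0.53 in mouse 7 (log2 scale). In each chow mouse left out in turn, the share on the higher side ran from 48.4% to 69.0%. These values share the other chow mice with the calls. All 7 mice lay mostly on the called side, with mouse 6 the least shifted.

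Relations to Cidec over the 7 high-fat mice were computed for 13 genes with exact permutation tests, two-sided. Cd36 (r = 0.96, rho = 0.96, adjusted p = 0.0103 by exact permutation of r, n = 7), Plin4 (r = 0.95, rho = 0.82, adjusted p = 0.0103 by exact permutation of r) and Scd1 (r = 0.92, rho = 0.93, adjusted p = 0.0103 by exact permutation of r) rose with it. Pparg (r = 0.91, rho = 0.96, adjusted p = 0.0181 by exact permutation of r), Gpnmb (r = 0.85, rho = 0.86, adjusted p = 0.0413 by exact permutation of r) and Fgf21 (r = 0.85, rho = 0.86, adjusted p = 0.0413 by exact permutation of r) also passed. By rho, only Cd36, Pparg and Scd1 passed, with adjusted p of 0.0181, 0.0181 and 0.0292 by exact permutation. Without mice 4 and 6, the farthest from the median of Cidec, r was 0.89 for Cd36, 0.94 for Plin4, 0.79 for Scd1, 0.91 for Pparg, 0.87 for Gpnmb and 0.88 for Fgf21.

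The other 7 did not pass. They were Mki67 (r = 0.77, rho = 0.79, adjusted p = 0.0818 by exact permutation of r) and Col1a1 (r = 0.76, rho = 0.82, adjusted p = 0.0903 by exact permutation of r). Rpl12 had r of -0.75, Elovl3 -0.34, Sqle 0.26, Cfd 0.15 and Rn7sk 0.02. Sqle moved to 0.93 without mice 4 and 6, and Cfd to -0.58. The points share libraries, and mouse 5, which held the fat-cell transcripts above, was the highest of the 7 for Cidec, Cd36, Plin4, Scd1, Pparg, Gpnmb and Fgf21.

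Whether diet acted differently in the other strain was tested next. The diet effect in C57BL/6J was compared with that in 129S1/SvImJ by a test of the difference, and 43 genes differed (0.296% of those tested), 18 with the C57BL/6J value above (0.124%) and 25 below (0.172%). Of the 43, 30 were also called for diet in C57BL/6J. This count was unsteady: it fell to 5 without 129S1/SvImJ chow mouse 1 and reached 170 without C57BL/6J high-fat mouse 4. The genes named below are given as they stood with all libraries. In 129S1/SvImJ 1514 genes were called for diet (10.4%; 5.41% higher and 5.01% lower), and 588 of them were called in both strains, which is 27.2% of the C57BL/6J calls and 38.8% of the 129S1/SvImJ calls; 585 of the 588 had the same direction.

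Cholesterol enzymes fell in both strains, and 3 of them fell less in C57BL/6J. The log2 fold change of Mvd was -2.18 in C57BL/6J and -4.70 in 129S1/SvImJ (adjusted p of the difference 0.0431 by edgeR), that of Cyp51 was -2.54 and -3.93 (0.0182), and that of Tm7sf2 was -1.47 and -2.25 (0.0298). Srgap3, a GTPase activator, was at -1.55 and -3.21 (0.0431). Ribosomal protein genes differed the other way. Of the 78, 62 were lower in C57BL/6J (7.2% of all genes) and 1 in 129S1/SvImJ (5.01%), and the difference was called for 7, among them Rpl12 (-0.58 and -0.05, adjusted p = 0.0431 by edgeR) and Rpl32 (-0.46 and -0.06, 0.0446). Tpm2, a tropomyosin gene, rose by 2.39 in C57BL/6J and was at -0.37 in 129S1/SvImJ (0.0490).

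Droplet genes did not pass this test. Cidec was at 4.06 in C57BL/6J and 0.34 in 129S1/SvImJ (adjusted p of the difference 0.13 by edgeR), Plin4 at 1.78 and 0.06 (0.12), Apoa4 at 3.09 and 0.57 (0.080) and Cfd at 5.35 and -2.78 (0.13). A difference between the strains in these genes was not detected at this number of mice, and equality was not shown.

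**Figure D5:**
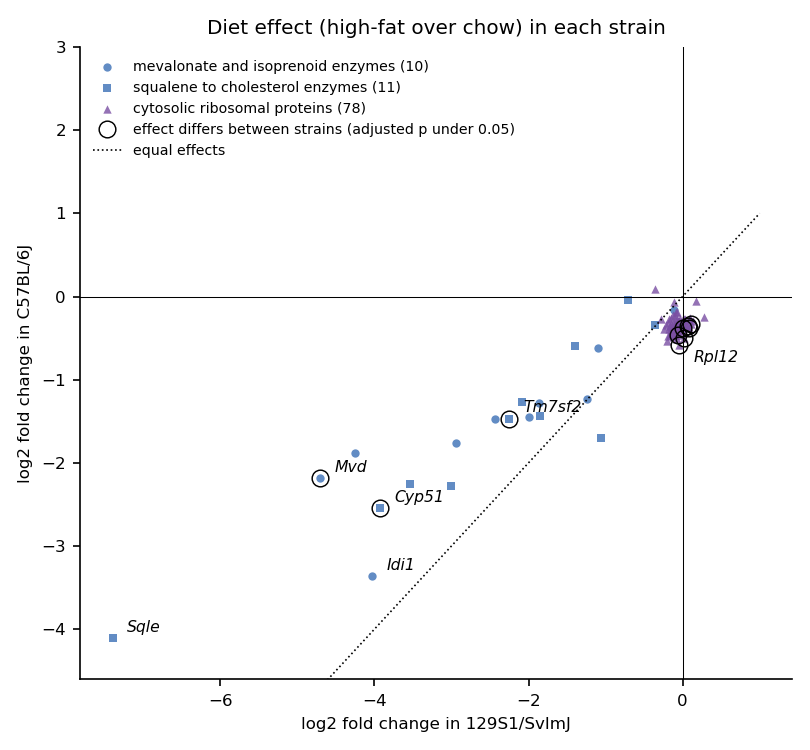
Log2 fold change (high-fat diet over chow) in C57BL/6J against that in 129S1/SvImJ for 10 mevalonate and 11 squalene to cholesterol enzymes (blue) and 78 cytosolic ribosomal protein genes (purple); circles mark genes whose effect differed between strains and the dotted line marks equal effects. Most cholesterol enzymes lie above the line, including Mvd, Cyp51 and Tm7sf2, and the ribosomal protein genes cluster below 0 in C57BL/6J and around 0 in 129S1/SvImJ.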

How the data were processed

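Total RNA of mouse liver was depleted of ribosomal RNA and made into strand-specific libraries, per the labels' protocols. Reads were trimmed and aligned with Trimmomatic 0.36, Bowtie2 2.2.3 and STAR 2.5.4b on mm10, and DESeq2 1.26.0 was used, per the submitters' processing notes, which give no role for each. The authors deposited whole-number counts per gene, used for the tests, and variance-stabilized values on a log2-like scale, used as an alternative. Of 53677 gene identifiers, 53582 matched GENCODE M21, which gave names and coordinates; the other 95 held 0.00747% of counts.

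The 24 libraries were fitted together with edgeR 4.0.16 (R 4.3.3): filterByExpr, trimmed-mean scaling and quasi-likelihood tests of diet within C57BL/6J and of its difference between strains, with Benjamini-Hochberg adjustment over 14533 genes and a threshold of 0.05. On simulated data with 14320 genes, the diet test in C57BL/6J recovered 65.7%, 89.4% and 100% of genes changed 1.5-, 2- and 4-fold, with 6 false among 175 calls. The changed genes numbered 67, 66 and 66 for these folds. How far these values hold for the 13 livers, where high-fat mice varied along a gradient, was not tested. Deviations of mice in log2(CPM + 0.5) were used for spread, components and relations (SciPy 1.17.1). Alternatives were DESeq2 1.42.0, other scalings and filters, limma 3.58.1, a replicate block, subsets and leaving out libraries.

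Named genes were those with the largest changes without overlap, the largest differences in CPM, the widest and narrowest spread, and the leading members of each list, with some genes set by name; the uncalled members and the marker genes named beside them were chosen after their values were seen. The members and lists were chosen with earlier results of these data known. Some members of the lists are counted in them but not reported by name here.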

Additional observations from a re-analysis of the deposited data

Results flagged for a closer look

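The chow and the high-fat mice were examined for each of the 150 named genes. In 19 of these 300 groups, 1 mouse stood farther from the others than the 95% limit of Dixon's test for its group size. Chance flags about 1 in 20 groups of genes not picked by their spread. Some named genes were picked by their spread among these same mice, so the number flagged cannot be set against that rate. The mice below are described, and no single flag is evidence of more than chance. On high-fat diet, mouse 6 stood apart and nearer to chow in Hsd17b11 (174 CPM, against 226 to 254 in the other 6), Stard4 (188, against 126 to 150), Enho (6.98, against 0.245 to 1.11) and Cyp3a11 (1086, against 1952 to 2955). Mouse 5 stood apart in Nsdhl (32.5, against 12.9 to 18.0), Egfr (245, against 770 to 1474), Hsd3b5 (0.573, against 35.7 to 177) and Mup7, a major urinary protein gene (14.2, against 279 to 914). The reads of Mup7 are uncertain, since its family holds near-identical copies.

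On chow, mouse 3 stood apart from the other 5 in Neat1 (1381 CPM, against 5127 to 7715), Aldh3a2 (240, against 352 to 429), Kng1 (1982, against 1624 to 1671) and Lcn2 (15.5, against 0.981 to 2.40). Mouse 6 did so in Hsd17b11 (179, against 131 to 146), Mvk (8.44, against 21.1 to 23.7) and Ern1, a sensor of unfolded protein (239, against 141 to 171). Mouse 4 did so in Abcb11 (1092, against 772 to 876) and Hnf4a (592, against 899 to 985), and mouse 1 in Cyp2c69 (3.47, against 1.57 to 1.86) and Mmp12 (0.0964, against 0.404 to 0.507).

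The diet effect differed between the strains, by edgeR's test of the difference, in 7 of the named genes. The C57BL/6J log2 fold change minus that of 129S1/SvImJ was 1.38 in Cyp51, 2.52 in Mvd, 0.78 in Tm7sf2, 1.67 in Srgap3 and 2.76 in Tpm2. It was -0.53 in Rpl12 and -0.40 in Rpl32. Adjusted p by edgeR lay between 0.0182 and 0.0490.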

How the results depend on the processing

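With other scaling, tools, filters or samples in the fit, genes called for diet in C57BL/6J stayed between 1490 and 2424 of the reported 2159 in 11 settings. The fit with the replicate number as a block gave 1746 calls for diet and 17 for the difference between strains, in place of 43; same-numbered chow and high-fat mice correlated at -0.10 to 0.20 and only number 5 correlated best with its own, so the numbers do not pair the mice. Leaving out 1 library gave 1627 to 2502 genes (849 to 1296 higher, 778 to 1206 lower), 5 to 170 for the difference between strains and 53.1% to 61.7% of genes with the larger SD on high-fat diet. With chow mice of id number 58 alone, 1107 genes were called (518 higher, 589 lower), and with those of 61 alone 1079 (539 and 540). A further set of settings was added after seeing the data: 312 genes (137 and 175) within the 5 libraries of lower Rn7sk, 784 (379 and 405) within the 8 of higher Rn7sk, and 1333 (677 and 656) without high-fat mice 2 and 5. These settings use fewer samples. The difference between strains counted 297 genes by DESeq2 and 170 with the Rn7sk level of the 24 libraries as a covariate; the cause was not tested. The range in place of the SD gave 62.7%, but a range over 7 mice tends to exceed one over 6 mice of equal spread. The fit within the higher Rn7sk level of all 24 libraries was not run, because it holds no C57BL/6J library. Of 150 named genes 139 were called, 125 of them in each of the 24 fits without 1 library that tested them. Ly6d, 1 of the 125, was tested in only 19 of these fits. Depth limits genes of few reads, such as Cidea, Mmp12 and the fat-cell markers.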
